A study of Homo sapiens with 6 samples.

Results

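The genes described here make, store, take up and break down catecholamines in SH-SY5Y cells: *TH*, *DDC*, *DBH*, *GCH1*, *CYB561*, *SLC18A1*, *SLC18A2*, *SLC6A2*, *MAOA* and *MAOB*. They were read through every probe set whose platform annotation names exactly 1 gene symbol and that symbol is one of these: 10 of the 18244 genes so annotated, with 30 of the 49393 probe sets that are not manufacturer's controls. *CYB561* had 9 of them, *MAOA* 4, *TH*, *DDC* and *SLC6A2* 3 each, *SLC18A2*, *MAOB* and *GCH1* 2 each, and *DBH* and *SLC18A1* 1 each. Probe sets of one gene read the same mRNA and are not replicates of a condition. For each gene the probe set with the highest mean over all 6 arrays is called the leading one below.

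Catecholamines are made from tyrosine in a short chain of steps. Tyrosine hydroxylase (*TH*), which needs the cofactor tetrahydrobiopterin made from GTP by a pathway that starts with GTP cyclohydrolase (*GCH1*), forms L-DOPA in the step that limits the rate. Aromatic L-amino acid decarboxylase (*DDC*) turns L-DOPA into dopamine, vesicular monoamine transporters (*SLC18A1* and *SLC18A2*) load it into vesicles, and dopamine beta-hydroxylase (*DBH*) inside the vesicle makes noradrenaline with electrons that cytochrome b561 (*CYB561*) passes across the vesicle membrane from cytosolic ascorbate. The plasma membrane noradrenaline transporter (*SLC6A2*) takes released transmitter back up, and monoamine oxidases A and B (*MAOA* and *MAOB*) on the outer mitochondrial membrane break it down. Sympathetic neurons and chromaffin cells of the adrenal medulla are known for this programme, and neuroblastoma, a tumour of the sympathetic lineage, often keeps it.

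SH-SY5Y is an established, cloned line from a human neuroblastoma, so all arrays describe 1 clone. Cells were transfected with 15 pM of an anti-miR against miR-137 (the anti-miR-137 group) or of Anti-miR Negative Control #1 (the control group) 24 hours after seeding, and total RNA was taken 72 hours after transfection. Both groups therefore went through the same transfection, and no untransfected cells were analysed here. Each group had 3 arrays, numbered 1, 2 and 3 in both groups; the labels do not say whether a number marks a shared culture or day, or whether replicates were separate cultures, so each p-value reflects only how far these 6 arrays scatter, and that scatter may be technical. The study asked which mRNAs miR-137 may target. The agent acts on the mature miRNA, whose name without an arm usually means the 3p arm, given here from RefSeq (GRCh38.p14, chr1:98046091-98046113, minus strand) with its seed, bases 2 to 8, in capitals:
hsa-miR-137-3p: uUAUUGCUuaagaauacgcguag

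The array medians lay between 6.39 and 6.43 on the log2 scale, and the RNA integrity numbers between 9.5 and 9.8, with 9.5 for anti-miR-137 array 1. All 12 sympathetic neuroblastoma markers with a probe set passed the filter for the gene-level table (a mean over 6 arrays at or above the 40th percentile, a log2 value of 5.69), with *HAND2* at a mean log2 value of 13.97, *GATA3* at 11.30 and *CHGA* at 14.47. Of 9 markers of midbrain dopamine neurons, the other main class of catecholamine cell, 4 passed it, all under 6.4, and *FOXA2* (4.71), *EN1* (3.88) and *KCNJ6* (4.33) did not. Of 8 Schwann and glial markers 4 passed, and of 13 mesenchymal markers 11 passed, among them *VIM* at 13.49. RMA values hold no true zero, so a low value does not show that a gene is silent.

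Of the 10 genes, 9 passed this filter through at least 1 probe set, and 23 of the 30 probe sets passed it. *MAOB* was the exception: its probe sets had mean log2 values of 5.59 and 4.92. The values of different probe sets depend on their probes, so no order of levels between genes is given. The same holds for probe sets of one gene: the mean log2 values of the 9 *CYB561* probe sets ran from 5.65 to 13.32, which says nothing of the mRNA's level.

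Anti-miR-137 was first compared with control. No probe set of the 10 genes passed the test: limma called 0 of 30 at an adjusted p under 0.05, against 0% of all 49393 probe sets, and 0 of 30 at an unadjusted p under 0.05, against 3.48% of all. The smallest unadjusted p was 0.10 (limma, adjusted p = 1.00), for the dim second probe set of *SLC18A2* at -0.27 log2 units. At gene level 0 of the 9 genes passed, against 0% of 12639 genes at the adjusted and 2.65% at the unadjusted threshold. The test was limma's moderated test with group as the only term, adjusted over all rows, and the number of arrays limits its precision. In bulk RNA, fewer cells of a type and less RNA per cell cannot be told apart.

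The enzymes of synthesis are given first. *TH* had log2 values of 8.35, 8.25 and 8.15 in anti-miR-137 arrays 1 to 3 and of 8.49, 8.19 and 8.22 in control arrays 1 to 3. The groups overlapped, and the difference, anti-miR-137 minus control, was -0.05 log2 units with a 95% confidence interval from -0.29 to 0.19. *DDC* had log2 values of 12.87, 13.06 and 12.95 in anti-miR-137 and of 12.91, 13.15 and 13.02 in control arrays. The anti-miR-137 array was the lower one under each number, the groups overlapped, and the difference was -0.07 (-0.28 to 0.14). *DBH* had log2 values of 12.50, 12.76 and 12.74 in anti-miR-137 and of 12.68, 12.87 and 12.72 in control arrays. The lowest of the 6 values was that of anti-miR-137 array 1, and the difference was -0.09 (-0.31 to 0.13).

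Cofactor and electron supply come next. *GCH1* had log2 values of 12.07, 12.00 and 12.02 in anti-miR-137 and of 12.09, 12.03 and 12.11 in control arrays, a range of 0.11 over all 6. The difference was -0.05 (-0.21 to 0.11). The other *GCH1* probe set, at 11.73, 11.74 and 11.59 against 11.78, 11.77 and 11.76, was the 1 of 30 whose groups did not overlap, against 8.09% of all probe sets. Its difference was -0.08 (-0.26 to 0.09). *CYB561* had log2 values of 13.05, 13.31 and 13.51 in anti-miR-137 and of 13.11, 13.34 and 13.61 in control arrays. These values stood apart by replicate number and not by group, and the difference between groups was -0.07 (-0.42 to 0.28).

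The transporters gave intervals of unequal width. *SLC18A1*, the vesicular transporter best known from chromaffin cells, had log2 values of 11.25, 11.58 and 11.58 in anti-miR-137 and of 11.38, 11.65 and 11.66 in control arrays. The anti-miR-137 array was lower under each number, and the difference was -0.10 (-0.37 to 0.18). *SLC18A2*, the vesicular transporter best known from neurons, had log2 values of 7.04, 7.43 and 7.42 against 6.70, 7.76 and 7.59. Its lowest value belonged to control array 1 and its highest to control array 2, so the interval was wide: -0.06 (-0.64 to 0.53). *SLC6A2* had log2 values of 10.91, 10.77 and 11.11 in anti-miR-137 and of 10.87, 11.003 and 11.07 in control arrays. The groups overlapped, with a difference of -0.05 (-0.29 to 0.19), and its other probe sets gave -0.13 and -0.05.

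The enzymes of breakdown had both signs. *MAOA*, which prefers noradrenaline and serotonin, had log2 values of 9.43, 9.37 and 9.18 in anti-miR-137 and of 9.37, 9.39 and 9.18 in control arrays. The difference was 0.01 (-0.21 to 0.23), and the 4 *MAOA* probe sets ranged from -0.06 to 0.06 with 2 on each side of 0. *MAOB*, at 5.47, 5.59 and 5.64 against 5.69, 5.56 and 5.57, gave -0.04 (-0.23 to 0.15), with anti-miR-137 array 1 as its lowest and control array 1 as its highest value.

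**Figure D1:**
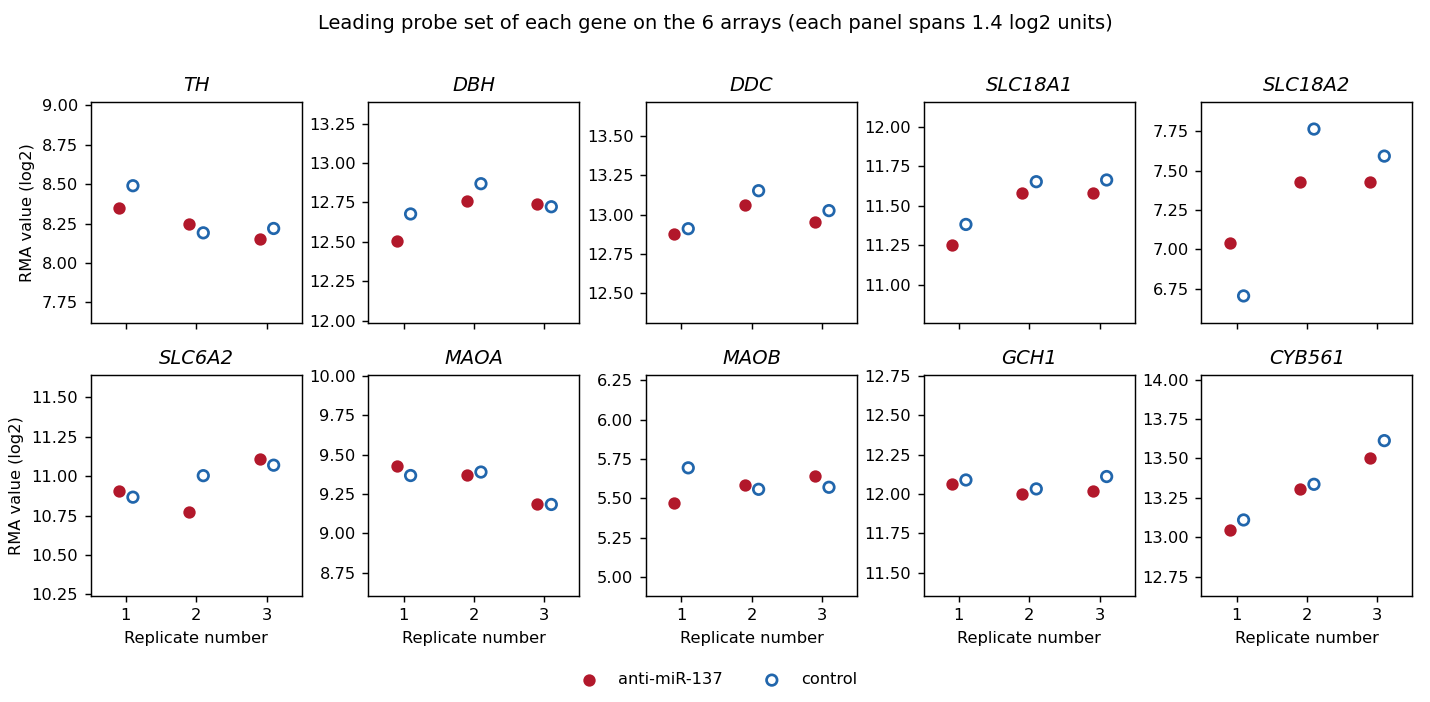
Log2 RMA value of the leading probe set of each of the 10 genes (vertical axis) by replicate number (horizontal axis), with filled points for anti-miR-137 and open points for control arrays. Each panel spans the same 1.4 log2 units; *CYB561* runs from 13.05 to 13.61 and separates by number, while filled and open points of every gene overlap.

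Most differences were small and below 0. Of the 30 probe sets 25 were lower after anti-miR-137 (median difference -0.06 log2 units), where 45.8% of all probe sets did (median 0.01), and 9 of the 10 leading probe sets did. At gene level 8 of 9 genes were lower, where 48% of all genes were. The share of lower values was 56.1% among the brightest 20% of all probe sets. The anti-miR-137 array was the lower one under all 3 numbers for 9 of 30 probe sets, 4 of them of *CYB561*. This held for 11.6% of all probe sets and for 18.2% of the brightest 20%. Without *CYB561* the count was 5 of 21. These counts were not tested, and they rested on the model and on single arrays. With the RNA integrity number as a covariate 13 of 30 were lower, without anti-miR-137 array 1 it was 17, and without control array 3 it was 18. The largest of the 30 differences in size was the -0.27 of the dim *SLC18A2* probe set.

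**Figure D2:**
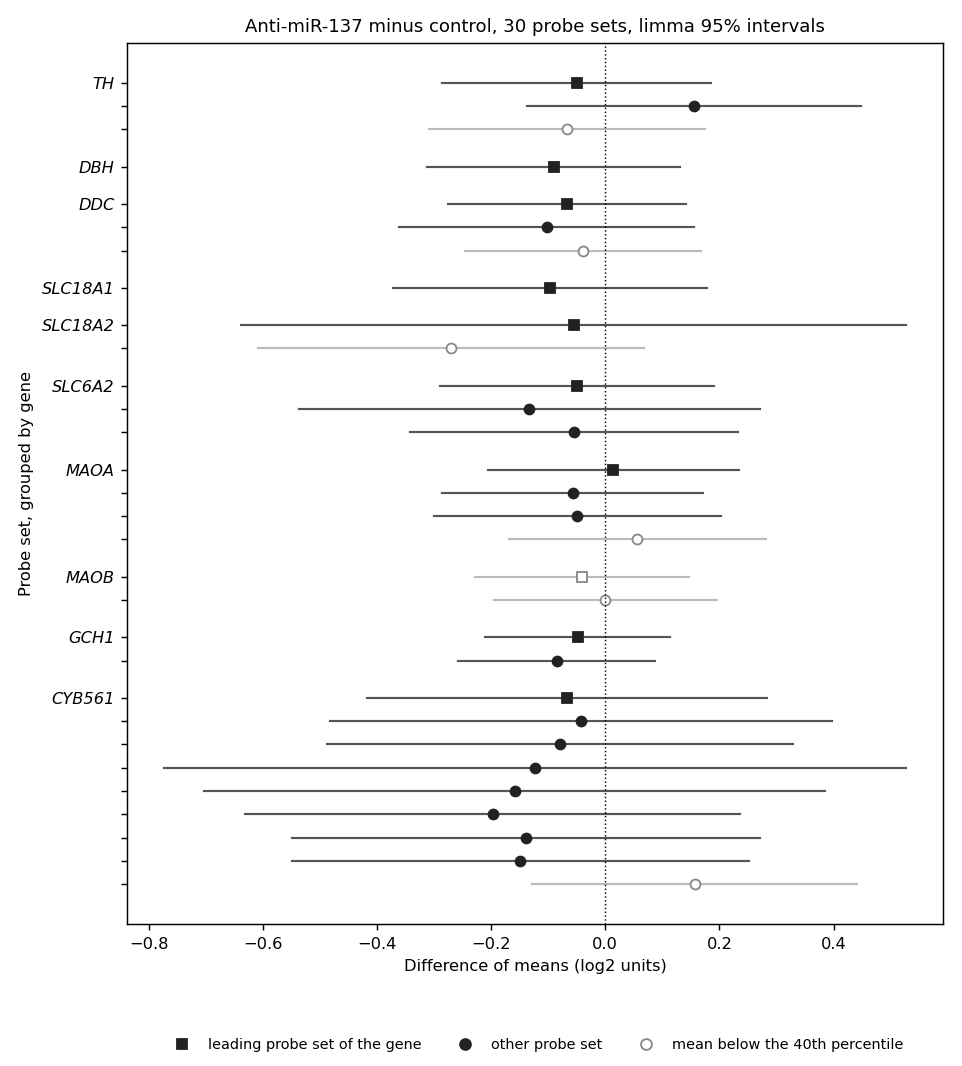
Difference between anti-miR-137 and control means in log2 units (horizontal axis) with limma 95% confidence intervals for the 30 probe sets, grouped by gene (vertical axis). Squares mark leading probe sets and open symbols those below the filter; every interval includes 0, and the differences run from -0.27 to 0.16.

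Replicate numbers were compared next, with both groups pooled under each number. This asked whether the 2 arrays of a number differed from those of another number beyond what was left after number and group were fitted. That fit left 2 residual degrees of freedom, so its calls lean on limma's variance prior, and the counts changed with it. *CYB561* was the member with the clearest difference. On its leading probe set both number 1 arrays (13.05 and 13.11) lay below both number 2 arrays (13.31 and 13.34), and these below both number 3 arrays (13.51 and 13.61). The difference of number 3 minus number 1 was 0.48 log2 units, 1.4-fold. In the gene-level table limma's F test over the numbers gave an adjusted p of 0.043 (95% interval of the difference 0.33 to 0.63), and *CYB561* was the 1 of 9 genes that passed, against 2.53% of 12639 genes.

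The *CYB561* call depended on the table and on which arrays were in the fit. Leaving out an array also takes away residual degrees of freedom. In the table of all 49393 probe sets the same probe set had an adjusted p of 0.19 (limma, F test), and none of the 30 passed there, against 0% of all. At gene level the adjusted p (limma, F test) was 0.16 without anti-miR-137 array 1, 0.18 without control array 1, 0.34 without anti-miR-137 array 3 and 0.35 without control array 3, while the difference stayed between 0.45 and 0.51.

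The other *CYB561* probe sets went the same way. All 9 were higher in number 3 than in number 1, and for the 8 over the filter the difference ran from 0.46 to 0.93 log2 units, 1.38- to 1.9-fold. The widest was on a probe set at 8.91, 9.21 and 9.78 in anti-miR-137 and 8.83, 9.63 and 9.82 in control arrays 1 to 3. The next brightest after the leading one had log2 values of 11.59, 12.04 and 12.28 in anti-miR-137 and of 11.70, 12.08 and 12.25 in control arrays. This probe set and several others of the 9 have the suffix s or x, and such probe sets can cross-hybridise. On the 8 probe sets over the filter both number 1 arrays were the lowest of the 6, a pattern that 12.5% of all probe sets had. Among the brightest 20% of all probe sets, 2284 of 9879 had it. The unadjusted F test p of the 8 lay between 0.00069 and 0.041 in limma, and the adjusted p between 0.16 and 0.34. The ninth, with a mean of 5.65 and the only one without an a, s or x suffix, gave 0.20 (-0.07 to 0.47).

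**Figure D3:**
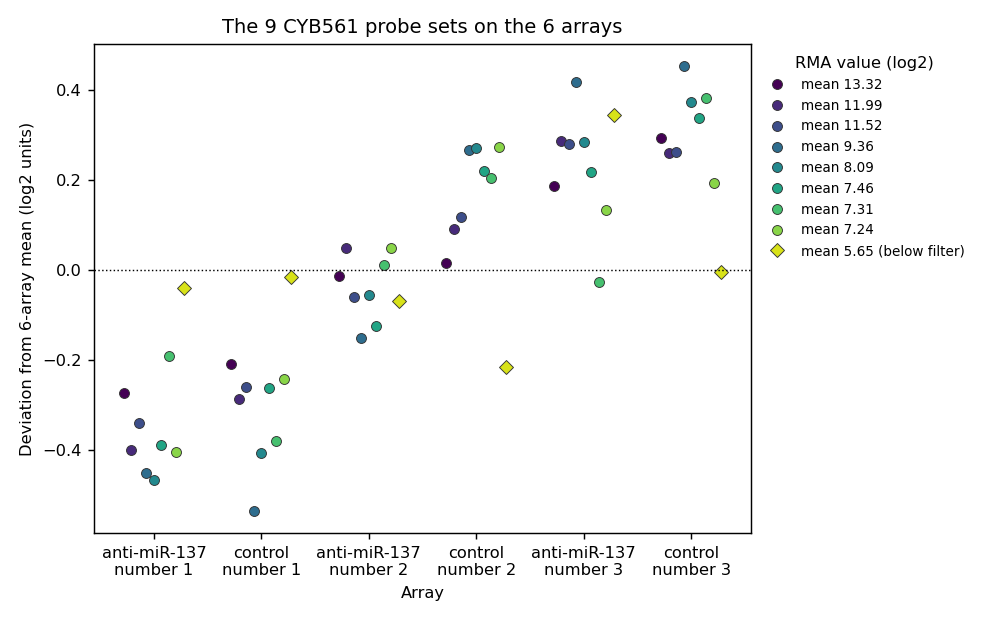
Deviation of each of the 9 *CYB561* probe sets from its own mean over the 6 arrays in log2 units (vertical axis) on each array (horizontal axis); colours give the probe set by its mean log2 value. The 8 probe sets over the filter are lowest on both number 1 arrays; the diamond is the probe set with a mean of 5.65.

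Over the 30 probe sets, 11 had an unadjusted F test p under 0.05 in limma, 8 of them of *CYB561*, where 14% of all probe sets did. For number 3 minus number 1 limma called 0 of 30 after adjustment, against 0.00607% of all. Both number 3 arrays lay above both number 1 arrays for 18 of 30 probe sets, against 25.1% of all, and 9 of the 18 were of *CYB561*. They lay below them for 7 of 30, against 27.1% of all. Among the brightest 20% of all probe sets, 3959 of 9879 lay above and 2653 below. Both number 1 arrays were the highest of the 6 for 3 of 30, against 11.5% of all. At gene level 6 of 9 genes had an unadjusted F test p under 0.05 in limma (*CYB561*, *SLC18A1*, *SLC18A2*, *MAOA*, *DDC* and *TH*), where 23.5% of all genes did. None of these but *CYB561* passed after adjustment.

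The vesicular transporters were lowest under number 1. *SLC18A1* stood at 11.25 and 11.38 under number 1 and at 11.58 to 11.66 under the others. Its difference of number 3 minus number 1 was 0.30 log2 units (0.16 to 0.45; limma F test at gene level, adjusted p = 0.071). *SLC18A2* stood at 7.04 and 6.70 under number 1 and at 7.42 to 7.76 under the others. Its difference was 0.63 (0.25 to 1.02; adjusted p = 0.096 in the same fit), and its dim probe set gave 0.33. Its size rested on single arrays: it was 0.34 without control array 1 and 0.93 without anti-miR-137 array 1. *SLC6A2* had number means of 10.89, 10.89 and 11.09, a difference of number 3 minus number 1 of 0.20 (-0.01 to 0.42; adjusted p = 0.29, limma), and its 2 other probe sets gave 0.46 and 0.31.

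*TH* and *MAOA* had the opposite sign. *TH* had number means of 8.42, 8.22 and 8.18, a difference of number 3 minus number 1 of -0.24 (-0.41 to -0.06; limma F test at gene level, adjusted p = 0.19), and its 3 probe sets gave -0.30 to -0.24. *MAOA* had number means of 9.40, 9.38 and 9.18, a difference of -0.21 (-0.36 to -0.06; adjusted p = 0.15), and its 4 probe sets gave -0.24 to -0.08. The differences between *CYB561* and these genes were not tested.

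The leading probe sets of *DBH* and *DDC* were highest under number 2. Their number means were 12.59, 12.81 and 12.73 for *DBH* and 12.89, 13.11 and 12.99 for *DDC*, with adjusted p of 0.22 and 0.18 in limma's F test at gene level. The other *DDC* probe sets were not highest under number 2. Their number means were 6.69, 6.51 and 6.47, and, on the one below the filter, 5.61, 5.69 and 5.75. They disagreed with each other, at -0.22 and 0.14 for number 3 minus number 1. *GCH1* had number means of 12.08, 12.02 and 12.07 (adjusted p = 0.74), and its interval for number 3 minus number 1 was -0.16 to 0.14. *MAOB* gave 0.02 (-0.23 to 0.27) on its leading probe set.

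**Figure D4:**
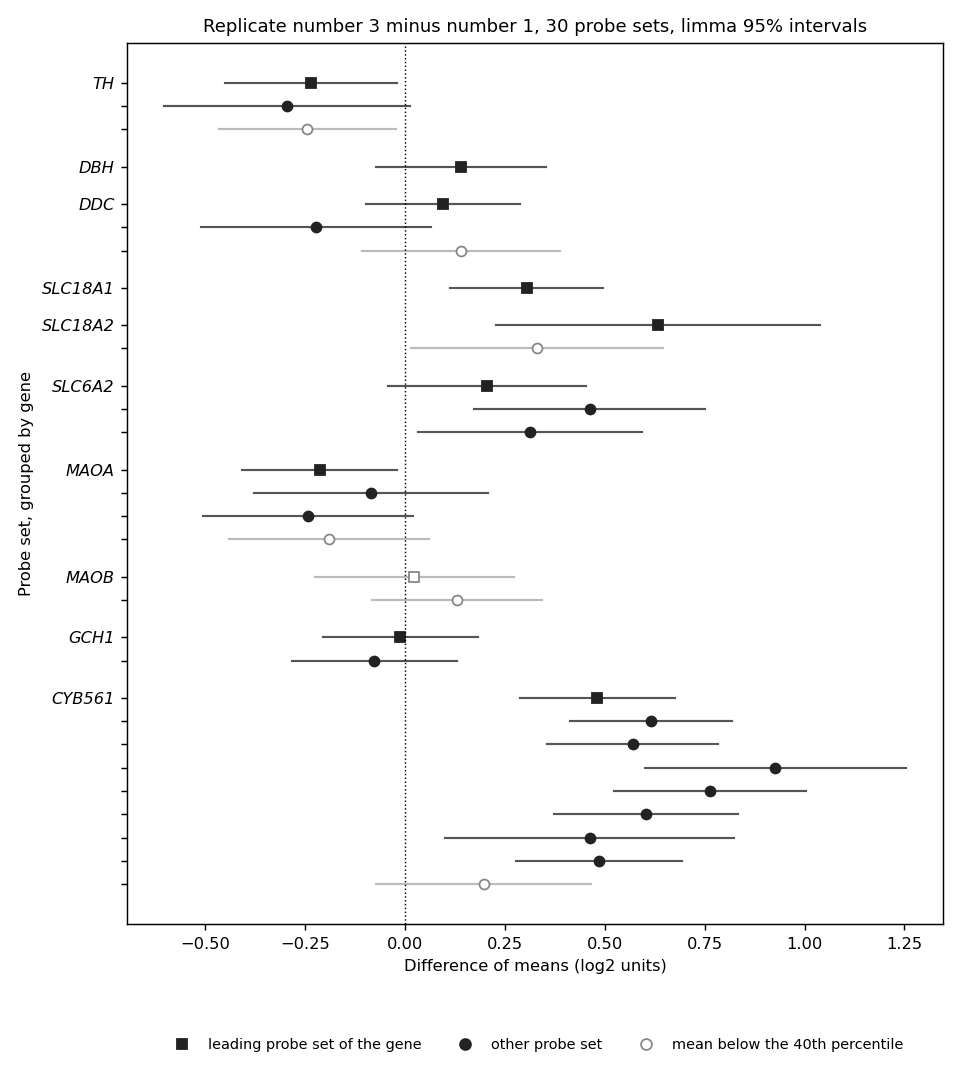
Difference between the means of replicate number 3 and number 1 in log2 units (horizontal axis) with limma 95% confidence intervals from the fit on all probe sets, for the 30 probe sets grouped by gene (vertical axis). Squares mark leading probe sets and open symbols those below the filter; all 9 *CYB561* probe sets lie above 0, and all 3 of *TH* and all 4 of *MAOA* below 0.

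Other measures moved with the replicate numbers too. The mean log2 level of 19 G1/S genes was 10.16 and 10.06 on the number 1 arrays, 10.28 and 10.29 under number 2 and 10.66 and 10.60 under number 3 (anti-miR-137 first), and 19 of 19 were higher under number 3 than under number 1, of which 10 passed limma's F test after adjustment, against 2.53% of all genes. All 20 G2/M genes were higher under number 3 as well, with a median difference of 0.41, and 4 of them passed, against the same 2.53%. The 11 mesenchymal markers over the filter had a mean log2 level of 8.98 to 9.08 under number 1. Under the others it was 8.78 to 8.86. Under number 3, 9 of 11 were lower than under number 1, where 6694 of all 12639 genes were. An unadjusted F test p under 0.05 in limma was found for 8 of 11, all lower, against 23.5% of all genes. After adjustment 1 of 11 passed, against 2.53% of all genes. The other 2 listed markers, *PRRX1* and *CD44*, were below the filter. The means of the 12 sympathetic markers lay between 12.29 and 12.41 on all arrays. Single markers went both ways. Of the 12, 5 had an unadjusted F test p under 0.05 in limma, against 23.5% of all genes. Of these 5, 2 were higher and 3 lower under number 3 than under number 1, with *ELAVL4* at 0.40 and *CHGB* at -0.27. After adjustment 0 passed. For RNA quality, the log2 difference between the 3' and 5' control probe sets of beta-actin was 1.79 to 1.87 under numbers 1 and 2 and 1.68 and 1.69 under number 3, and that of GAPDH 0.21 to 0.24 throughout. The part of each of these in the differences between numbers was not tested.

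**Figure D5:**
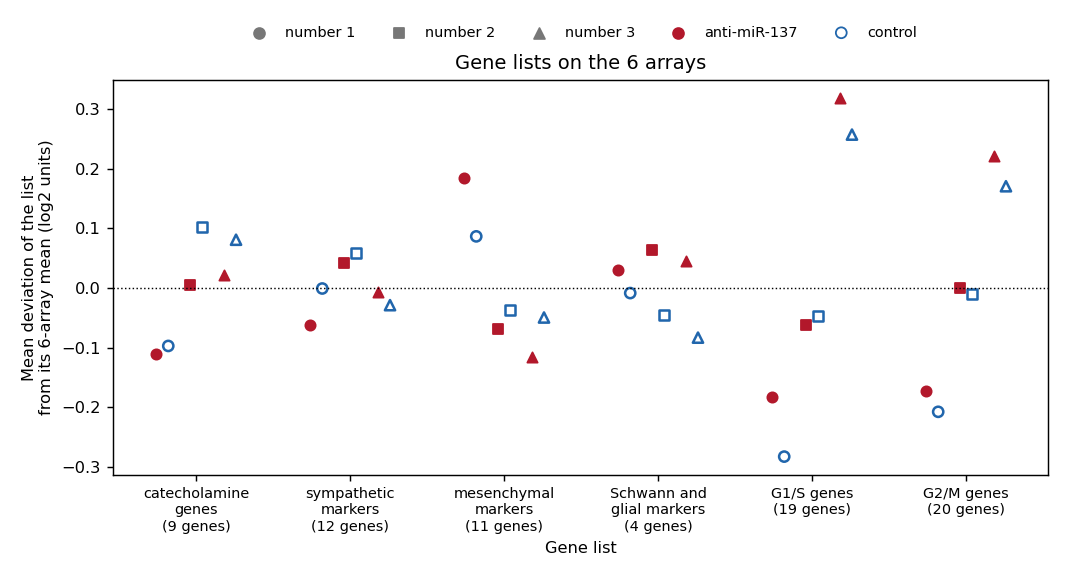
Mean log2 level of 6 gene lists on each array as a deviation from the list's mean over the 6 arrays (vertical axis), by list (horizontal axis); symbols give the replicate number, filled for anti-miR-137 and open for control. The G1/S list runs from -0.28 to 0.32 by number, the catecholamine genes from -0.11 to 0.10 and the sympathetic markers from -0.06 to 0.06.

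Promoters are shown for *CYB561* and *SLC18A2*, the members with the widest differences between numbers at gene level, and for *DBH*, which uses the electrons that *CYB561* delivers. The RefSeq promoter table (GRCh38.p14) matched 6 of the 10 genes (*DBH*, *DDC*, *SLC18A2*, *MAOA*, *MAOB* and *CYB561*), and the 250 bases before each start were read. Capitals mark the core of the cAMP response element, TGACGTC, in *DBH* and its palindrome TGACGTCA in *SLC18A2*, and GGGCGG, a GC box, on either strand in *CYB561*. The windows are chr17:63446640-63446889 (minus strand, the first of 4 listed starts), chr10:117240864-117241113 (plus strand) and chr9:133636113-133636362 (plus strand).
CYB561: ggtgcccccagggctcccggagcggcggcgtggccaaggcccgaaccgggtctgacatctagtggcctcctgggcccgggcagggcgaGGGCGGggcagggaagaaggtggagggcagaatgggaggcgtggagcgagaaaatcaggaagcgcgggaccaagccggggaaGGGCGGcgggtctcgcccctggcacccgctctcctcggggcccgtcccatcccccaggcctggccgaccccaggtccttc
SLC18A2: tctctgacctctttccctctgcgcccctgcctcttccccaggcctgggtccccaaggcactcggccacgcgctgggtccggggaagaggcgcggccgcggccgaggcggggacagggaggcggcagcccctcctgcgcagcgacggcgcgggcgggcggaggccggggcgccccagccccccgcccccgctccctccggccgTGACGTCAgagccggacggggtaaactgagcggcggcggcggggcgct
DBH: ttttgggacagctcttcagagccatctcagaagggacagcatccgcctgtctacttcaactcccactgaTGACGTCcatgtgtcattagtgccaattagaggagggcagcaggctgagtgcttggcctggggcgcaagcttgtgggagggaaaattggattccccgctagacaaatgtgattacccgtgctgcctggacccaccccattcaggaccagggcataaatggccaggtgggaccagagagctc

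The letters TGACGTC occurred on either strand in 3.12% of 35116 such windows. In *SLC18A2* they formed the palindrome TGACGTCA, in which the core matches on both strands and overlaps itself, and which 1.65% of windows held. GGGCGG occurred in 42.6% of windows: 2 times in the *CYB561* window shown, 3 times in that of *SLC18A2*, 4 times in that of *MAOA* and 7 times in that of *MAOB*. *CYB561* and *SLC18A2* thus shared GC boxes, which are common, but not the cAMP response element core in these windows. The search also covered TAATTA. Another motif was AGATAA. Neither matched in these genes. The E-box CANNTG, which 61.8% of windows held, matched 3 times in *DBH* and not in the *CYB561* window shown or in *SLC18A2*. A match is a description of letters, not of a bound site.

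The rest of the pathway was read from 6 lists of 111 genes, of which 97 had a probe set with 1 symbol and 77 passed the filter. For treatment 0 of 77 passed in limma in either direction, and 1 had an unadjusted p under 0.05 (335 of 12639 over all genes). It was *ADRA1D*, an adrenergic receptor, at 6.45 ± 0.014 in anti-miR-137 and 6.21 ± 0.031 in control cells (SD, n = 3 each), 0.24 log2 units higher (adjusted p = 1.00, limma). The other *ADRA1D* probe set gave 0.06. Of the 77, 39 were lower and 38 higher in anti-miR-137 cells, with a median difference of -0.0014, beside 0.0033 over all genes.

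Cofactor and tyrosine supply had 10 genes over the filter. Among them *SPR*, the last enzyme of tetrahydrobiopterin synthesis, gave 0.12 log2 units for treatment, and *SLC16A10*, an aromatic amino acid transporter, 0.11. The other *SPR* probe set gave -0.10, and *SLC16A10* gave 0.0021 without anti-miR-137 array 3 and 0.27 without anti-miR-137 array 1. For number 3 minus number 1, 8 of 10 were higher, where 47% of all genes were. *SLC16A10* gave 0.50 and *PCBD2*, which helps recycle the cofactor, 0.60, with adjusted p of 0.058 and 0.060 in limma's F test. The other *SLC16A10* probe set gave 0.17. The median of this list was 0.16, beside that of all genes at -0.01.

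The vesicular proton pump drives monoamine loading, and all 18 of its listed genes passed the filter. For treatment *ATP6V1G2* gave -0.12 and *ATP6V1B1* -0.16, and 9 of the 18 were lower, where 48% of all genes were. The other *ATP6V1G2* probe set gave 0.18. For the numbers *ATP6V0D1* gave 0.36 and *ATP6V0B* 0.33 (adjusted p = 0.065 and 0.077, limma F test). Of the 18, 12 were higher under number 3 than under number 1, where 47% of all genes were, and the median was 0.06. The 6 other probe sets of *ATP6V0D1* did not all go the same way; the 7 ranged from -0.0068 to 0.44.

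Other enzymes and carriers formed a separate list. Of its 24 further genes of synthesis, uptake and breakdown 11 passed the filter. For treatment *PNMT*, which makes adrenaline from noradrenaline, gave 0.11 and *ALDH2*, which oxidises the aldehydes that monoamine oxidases form, -0.09. For the numbers *MOXD1*, a relative of *DBH*, was highest under number 2 (means 6.03, 6.39 and 6.05; adjusted p = 0.064, limma F test), and *SLC29A4*, a low-affinity monoamine transporter, gave -0.22. *SLC6A3*, the dopamine transporter, had a mean log2 level of 5.93.

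Regulators of tyrosine hydroxylase are kinases, phosphatases and 14-3-3 proteins that act on the enzyme, and 16 of 20 passed the filter. For treatment *PRKAR1A*, a regulatory subunit of protein kinase A, gave -0.10 and the 14-3-3 gene *YWHAG* -0.08. For the numbers the 14-3-3 gene *YWHAH* gave 0.43 and the phosphatase subunit *PPP2CA* 0.32 (adjusted p = 0.071 and 0.095, limma F test). Of the 16, 14 were higher under number 3 than under number 1, where 47% of all genes were.

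Among 7 adrenergic and dopamine receptor genes over the filter, 5 were higher in anti-miR-137 cells, where 6567 of all 12639 genes were. *ADRA1D* was as above and *ADRA1B* gave 0.14. For the numbers *DRD4* gave -0.57 and *DRD2* 0.39, with adjusted p of 0.13 and 0.15 in limma's F test. The other *DRD2* probe set gave 0.055. Among 15 transcription factors of catecholamine cells, *SP3* (-0.14) and *KLF11* (-0.22), which are known to act on the monoamine oxidase promoters among others, had the smallest p for treatment. The *KLF11* difference was -0.09 without control array 1 and -0.38 without anti-miR-137 array 1, and both genes had a probe set with a difference above 0. For the numbers *HAND1* gave 0.19 and *KLF11* -0.53 (adjusted p = 0.057 and 0.071, limma F test). The 3 *KLF11* probe sets ranged from -0.53 to 0.0031 for number 3 minus number 1. Over the 6 lists 20 of 77 genes had an unadjusted F test p under 0.05 in limma, against 23.5% of all genes, which is near that background, and 0 passed after adjustment, against 2.53% of all.

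The genes most like each member over the 6 arrays were named by Pearson's r among the 6412 other genes (6413 for *GCH1*) with an SD of at least 0.1 log2 units, as a description. With 6 arrays and so many candidates high values are common: 214 genes had an r above 0.95 with *CYB561*. The closest to *CYB561* were *RCAN3* (r of 0.999) and *TEX261* (0.996), which gave 0.53 and 0.47 for number 3 minus number 1. The closest to *SLC18A2* were *RIIAD1* (0.996) and *GLB1L3* (0.991), to *SLC18A1* *NDUFAF1* (0.991) and *MYBL2* (0.987), and to *SLC6A2* *PHACTR3* (0.999) and *NAP1L4* (0.995). For *TH* they were *NCRNA00266* (0.995) and *SLC39A4* (0.994), for *MAOA* *PNISR* (0.994) and *GPR155* (0.990). *DBH* was followed by *DNAAF10* (0.989) and *GRIA2* (0.982), *DDC* by *CNTN1* (0.979) and *APH1B* (0.977). *GCH1*, whose own SD was 0.043, had *CETN3* (0.991) and *RNF19B* (0.989).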

How the data were processed

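Total RNA of 6 samples was measured on 1-colour arrays. The authors deposited a log2 value for each probe set, made with RMA in R 3.0.1, per the submitters' processing notes; RMA makes array distributions alike, so a shift of all transcripts could not be seen. The genome build behind the probe annotation is not given in the sources used here. The file held 49495 probe sets, 102 of them controls. Symbols came from the platform annotation.

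Tests used limma 3.58.1 under R 4.3.3 (two-sided, Benjamini-Hochberg over all rows, threshold 0.05) on all 49393 probe sets without a filter, and on 12639 genes represented by their brightest probe set with 1 symbol and a mean at or above the 40th percentile. Replicate numbers were tested by limma's F test with group in the model. Intervals in the comparison of anti-miR-137 with control come from the fit on all probe sets; those between numbers come from the gene-level fit, or from all probe sets for *MAOB* and for probe sets that do not lead. Of the 30 probe sets, 16 have the suffix a, 7 x and 3 s; x and s probe sets can cross-hybridise. From each of the 6 pathway lists the 2 genes with the smallest unadjusted p in each comparison were named, and for each member the 2 most alike genes. The members and lists were chosen with earlier results of these data known. No array was a copy of another: over the 12639 genes of the gene-level table, the root mean square difference of a pair was at least 0.13. Alternatives were filters, normalizations, variance priors, array weights, probe set choice, covariates and left-out arrays.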

Additional observations from a re-analysis of the deposited data

How the results depend on the processing

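For treatment the counts of probe sets and genes past the adjusted threshold were 0 under every alternative run and with each array left out (0 to 0), over all rows and over the members. The labels do not say that a number marks a shared culture or day, so the numbers were not taken as pairs. Deviations from the group means correlated at 0.55, 0.073 and 0.65 between the arrays of numbers 1, 2 and 3. Each array's values were also closest to those of the same number in the other group. The treatment intervals of the main fit therefore include spread between numbers. With the replicate block 0 probe sets and 0 genes passed for treatment (2840 and 815 at an unadjusted p under 0.05, against 1717 and 335 without it). Of the 30 member probe sets, 2 had an unadjusted p under 0.05 in limma with the block and 0 without it. For the replicate number the counts depended on the variance prior and the filter. Over probe sets they were 0 in the main setting, 3 over the 40th percentile, 1713 over the 60th percentile (8 of the members), 2862 with a prior with trend (12 of the members), 3 with array weights and 4 without group, and 0 to 0 with an array left out. Over genes they were 320 in the main setting (1 member), 2 without a filter (0 members), 1099 over the 60th percentile (3 members), 98 without s, x and a suffixes (0 members, since the *CYB561* probe set left is below the filter), 1797 with trend (5 members), and 0 to 540 with an array left out (0 to 1 members).

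Values near 0 changed sign. With the RNA integrity number as a covariate the treatment difference became 0.041 for *DBH*, 0.022 for *DDC*, 0.060 for *SLC18A1*, 0.22 for *SLC18A2*, 0.071 for *CYB561*, 0.0012 for *MAOB* and -0.023 for *MAOA*; it was 0.0039 for *TH* with array weights and -0.0019 for *MAOA* with median centring, which gave 0.012 for number 3 minus number 1 of *GCH1*. Averaging probe sets gave -0.063 for number 3 minus number 1 of *DDC* and 0.030 for treatment of *ATP6V1G2*, and leaving out suffixed probe sets gave -0.0068 for number 3 minus number 1 of *ATP6V0D1*. With an array left out, treatment ranged from -0.10 to 0.045 for *TH*, -0.19 to 0.013 for *SLC18A1*, -0.38 to 0.15 for *SLC18A2*, -0.14 to 0.029 for *SLC6A2*, -0.051 to 0.086 for *MAOA*, -0.078 to 0.0067 for *MAOB*, -0.19 to 0.063 for *CYB561* and -0.021 to 0.24 for *SPR*, and number 3 minus number 1 from -0.11 to 0.16 for *MAOB*, -0.043 to 0.019 for *GCH1* and -0.045 to 0.079 for *MOXD1*. The causes were not tested. Of 359 values of single genes under the other alternatives, 314 kept their direction and side of the threshold. For *CYB561* number 3 minus number 1 lay between 0.48 and 0.61 at gene level in these.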
